A study of Mus musculus with 9 samples.

Results

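The immediate early and AP-1 genes are the 10 genes Fos, Fosb, Fosl1, Fosl2, Jun, Junb, Egr1, Ier2, Ier3 and Dusp1. These were chosen by name, with earlier results of these data known, and all were found among the 24421 genes of the count table. They were measured by poly(A) RNA-seq in 9 libraries of the mouse mammary tumor line 4T1, which lacks the estrogen and progesterone receptors and HER2 and forms lung metastases in mice. In 3 libraries the cells had grown as 3D spheroids on soft agar with 75 µM palmitate, in 3 as 3D spheroids without added palmitate, and in 3 as 2D monolayers with 75 µM palmitate, each for 5 days. Palmitate, a saturated fatty acid, was given bound to albumin, and the cells without it received albumin and ethanol alone. All libraries come from the same cell line in serum-containing medium with no genetic change, so they describe that line in culture, and no 2D culture without palmitate was analysed here. The labels do not say whether the replicates were separate cultures, so p-values measure only the spread between these libraries.

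Immediate early genes are transcribed within minutes of a stimulus such as a growth factor, stress or handling, from factors that are already present in the cell, and their RNAs are short-lived. The Fos proteins (Fos, Fosb, Fosl1, Fosl2) pair with Jun proteins (Jun, Junb, Jund) through a leucine zipper to form AP-1, a transcription factor known for its place in proliferation, invasion and matrix breakdown in carcinoma cells. Egr1 is a zinc finger factor induced through the ERK kinases, and Dusp1 is a phosphatase that switches the p38, JNK and ERK kinases off again. A steady-state count cannot separate faster transcription from slower RNA decay.

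The promoters of Fos, Fosb and Dusp1 are shown because these 3 members are the ones that rose with palmitate in spheroids. Each sequence holds the 250 bases before the RefSeq start of the gene, on the gene's own strand, from build GRCm38.p6. They lie at chr12:85473640-85473889 on the plus strand for Fos, at chr7:19310046-19310295 on the minus strand for Fosb, and at chr17:26508473-26508722 on the minus strand for Dusp1. Capitals mark every match to the cyclic AMP response element TGACGTCA, its core TGACG, the AP-1 site TGANTCA, the TATA box TATAAA, the CArG box bound by SRF and the NF-kB site, searched on both strands.
Fos: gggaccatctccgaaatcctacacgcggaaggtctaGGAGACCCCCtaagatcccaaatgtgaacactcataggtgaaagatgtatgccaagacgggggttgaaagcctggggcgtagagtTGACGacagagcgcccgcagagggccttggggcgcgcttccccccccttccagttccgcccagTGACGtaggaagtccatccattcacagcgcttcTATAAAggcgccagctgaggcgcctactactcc
Fosb: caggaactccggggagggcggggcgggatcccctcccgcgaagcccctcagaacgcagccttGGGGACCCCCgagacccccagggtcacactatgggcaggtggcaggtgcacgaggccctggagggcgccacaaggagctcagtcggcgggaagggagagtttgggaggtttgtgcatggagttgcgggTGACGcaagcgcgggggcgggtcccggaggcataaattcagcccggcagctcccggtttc
Dusp1: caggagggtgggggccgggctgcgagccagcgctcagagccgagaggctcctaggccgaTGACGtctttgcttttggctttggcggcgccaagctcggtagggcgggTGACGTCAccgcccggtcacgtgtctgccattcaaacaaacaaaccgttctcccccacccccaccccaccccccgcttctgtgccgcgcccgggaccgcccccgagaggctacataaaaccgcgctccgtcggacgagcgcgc
In Fos the capitals are an NF-kB site match at position -214, cores TGACG at -129 and -66 and a TATA box at -33, counted back from the start. In Fosb they are an NF-kB site match at -188 and a core TGACG at -60. In Dusp1 they are a core TGACG at -191 and the full element at -143, which contains such a core on each strand.

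Promoter windows that reach 50 bases past the start as well were searched for 7 of the 10 members, namely these 3 and Fosl2, Jun, Junb and Ier3. Egr1 was left out of the search, and no window was available for Fosl1 and Ier2. The core TGACG was in 4 of the 7 (Fos, Fosb, Junb and Dusp1) and in 20.8% of all 32851 RefSeq promoters of that length. An NF-kB site match was also in 4 of the 7 (Fos, Fosb, Fosl2 and Ier3), against 4.51% of all promoters, and the 2 matches in Fosl2 overlap each other. The full response element was in 1 of the 7 and in 1.79% of all promoters, and TATAAA in 2 of the 7 (Fos and Junb) and in 13.6%. No window of the 7 held TGANTCA, which is in 7.81% of all promoters, or a CArG box, which is in 1.63%. A match is a description of the letters in this window, and a window without one says nothing about the factor.

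Total counts ranged from 6595514 to 31177756 per library, and the shallowest library was replicate 3 of the 3D cultures with palmitate. The ribosomal RNA precursor Rn45s took 1.77% to 5.38% of the counts. Levels are given as CPM, read counts scaled to a common library size with TMM factors from edgeR. All 10 members were among the 12575 genes that passed the filter on low counts. Fold changes are on the log2 scale with their standard error (SE), and a gene is called where its adjusted p-value (edgeR's quasi-likelihood test, Benjamini-Hochberg over the 12575 genes) is under 0.05. The epithelial keratins Krt8 and Krt18 were abundant, with at least 9290 and 9584 counts in each library. Of the basal keratins, Krt5 had at most 1 count and Krt14 had 729 to 4218. Krt14 averaged 129 CPM in 3D with palmitate, 185 in 3D without and 139 in 2D (-0.52 with palmitate in 3D, adjusted p = 0.00517, edgeR). The leukocyte markers Adgre1 and Cd3e had 0 counts, and the endothelial markers Pecam1, Cdh5 and Kdr had at most 8. Of the other leukocyte and fibroblast markers, Cd68 and Pdgfra alone passed the filter, and both moved between 3D and 2D. Cd68 averaged 9.40 CPM in 3D with palmitate, 7.08 in 3D without and 25.7 in 2D (3D over 2D -1.39, adjusted p = 2.41e-07, edgeR), and Pdgfra 98.8, 97.4 and 30.4 CPM (1.69, adjusted p = 3.27e-10, edgeR). Their part in the members' values was not tested.

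The 3D libraries with palmitate were less alike than those of the other groups, with a chi-square per gene between replicates of 16.4 to 19.7 against 3.90 to 9.30, and replicate 1 stood apart for the members. It was the highest of its group for 9 of the 10 members, against 38.7% of all genes. Its log2 ratio to the mean of replicates 2 and 3 lay at percentile 99.2 of all genes for Fosb, 98.5 for Fos, 98.4 for Dusp1, 96.9 for Ier2 and 96.8 for Fosl1. The same ratio moved with base composition, with a median of -0.19 in the lowest and 0.23 in the highest of 4 equal bins of genes by GC content, and all 10 members lie in the upper 2 bins. With each library's trends with GC content and transcript length removed, Fos, Fosb and Dusp1 still rose with palmitate, by 1.82, 1.64 and 1.11 on the log2 scale. Among the 2D libraries, replicate 3 was the highest for 8 of the 10 members, against 37.7% of all genes.

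The members differed widely in abundance. Set per kilobase of transcript, so that genes of unequal length can be compared, the mean level over the 9 libraries was highest for Ier3 at 208 CPM per kb, above 98.3% of the 12507 tested genes with a known length. Junb followed at 114 CPM per kb (percentile 96.0), Ier2 at 62.6 (percentile 90.9) and Jun at 53.4 (percentile 88.8). Fosl2, Fosl1 and Egr1 lay in the middle, at 21.6, 16.2 and 13.6 CPM per kb. Fos at 9.05, Dusp1 at 6.15 and Fosb at 3.68 CPM per kb were the least abundant members, and these 3 rest on the fewest reads, with as few as 76 counts for Dusp1, 81 for Fos and 99 for Fosb in a library.

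**Figure D1:**
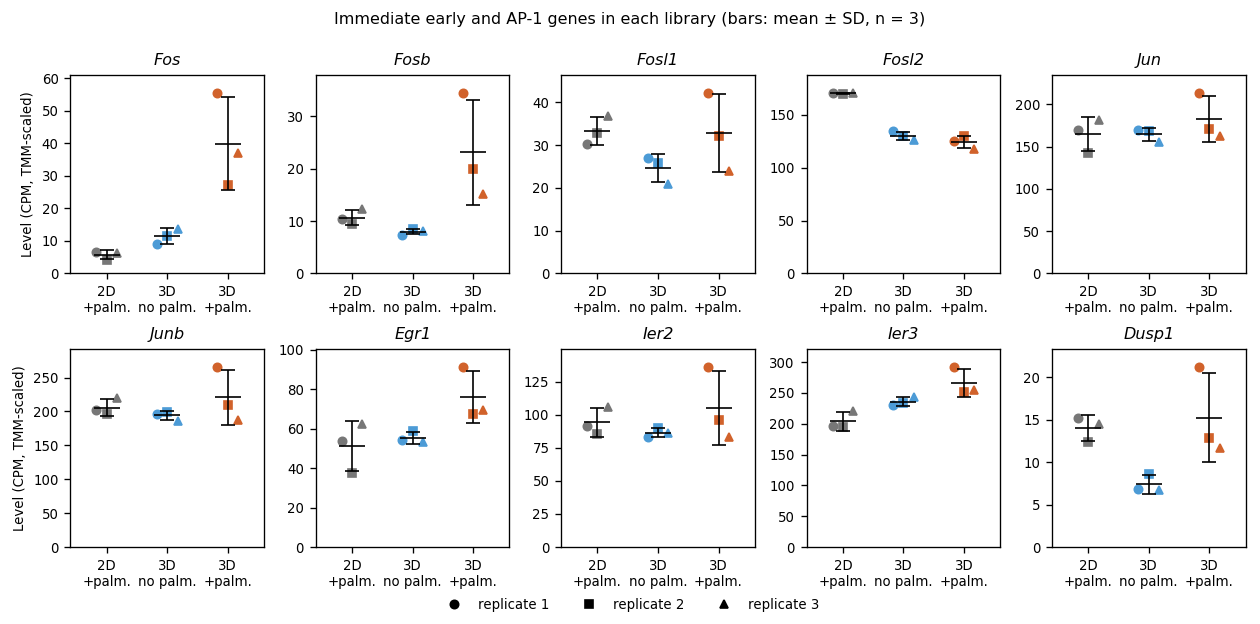
Level of each member in each library, in CPM after TMM scaling on a linear axis from 0, by group, with the replicate number as the marker shape and bars for the mean ± SD (n = 3). The 3 libraries of 3D cultures with palmitate lie above all others for Fos and Fosb, from 27.3 to 55.5 and from 15.2 to 34.4 CPM, while the 2D libraries lie above all others for Fosl2.

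To address what palmitate does in spheroids, 3D cultures with and without it were compared. Fos, Fosb and Dusp1 rose, by 3.58-fold, 3.12-fold and 2.21-fold, and no member fell. The other 7 members did not pass the test. The 3 called members of 10 stand beside 1.38% of all tested genes called higher, 0.811% called lower and 2.19% called in either direction (275 genes, 173 higher and 102 lower). The groups did not overlap for 5 members (Fos, Fosb, Egr1, Ier3 and Dusp1), beside 18.6% of all genes. The log2 fold change was above 0 for 9 of the 10, with a median of 0.39 over the members and 0.01 over all genes, and the unadjusted p was under 0.05 for 7. Without replicate 1 of the spheroids with palmitate, Fos, Fosb and Dusp1 were still the 3 called, the median over the members was 0.16 and the unadjusted p was under 0.05 for 4. In that fit 1.17% of all genes were called. Without replicate 3 of that group, the shallowest library, 7 members were called beside 14.9% of all genes, and the median over the members was 0.49.

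To address what growth in 3D does when palmitate is present, 3D and 2D cultures with palmitate were compared. Fos, Fosb, Egr1 and Ier3 were higher in 3D, by 7.36-fold, 2.32-fold, 1.51-fold and 1.31-fold, and Fosl2 was lower by 1.37-fold. Fosl1, Jun, Junb, Ier2 and Dusp1 did not pass the test. In this comparison 68.3% of all tested genes were called, 34.5% higher and 33.9% lower in 3D, so the 5 called members of 10, with 4 higher and 1 lower, are no larger a share than that of all genes. The groups did not overlap for those 5 members, beside 69.4% of all genes, and the median log2 fold change was 0.20 over the members and 0.01 over all genes. The median over the members was -0.01, with 5 of 10 above 0, when replicate 1 of the spheroids with palmitate was left out, and 0.34 when replicate 3 was. Members called then numbered 5 and 8, beside 67.1% and 69.3% of all genes. Both comparisons use the same 3D libraries with palmitate, so a high or low value there enters both. A further contrast, 3D without against 2D with palmitate, differs in culture form and palmitate together and is used only to order the levels. In it 72.1% of all genes were called, and of the members 2 were called higher and 3 lower.

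**Figure D2:**
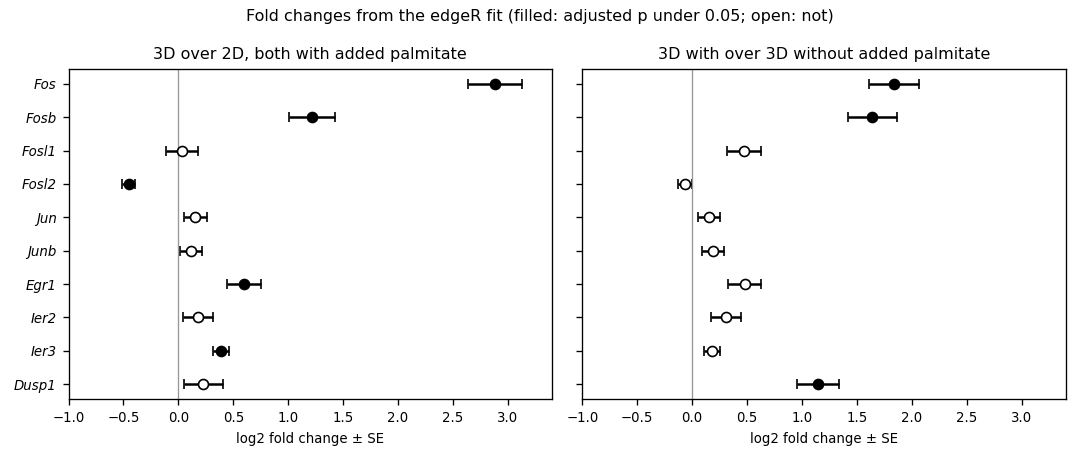
Log2 fold change of each member with its standard error from the edgeR fit, on a common axis, for 3D over 2D cultures with palmitate (left) and for 3D cultures with over without palmitate (right), filled where the adjusted p is under 0.05. Fos is the member farthest from 0 in both panels, at 2.88 and 1.84, and Fosl2 is below 0 in both, at -0.45 and -0.07, filled in the left panel only.

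Fos, the founding AP-1 subunit, is encoded at chr12:85473890-85477273 on the plus strand. Its level was 55.5, 27.3 and 37.1 CPM in replicates 1 to 3 of the 3D cultures with palmitate, 9.07, 11.6 and 13.8 CPM in the 3D cultures without it, and 6.70, 4.26 and 6.37 CPM in the 2D cultures. The 3 groups did not overlap, and the lowest spheroid library with palmitate was above the highest of every other group. The means were 40.0 ± 14.3, 11.5 ± 2.38 and 5.78 ± 1.32 CPM (SD, n = 3). The log2 fold change was 1.84 with palmitate in 3D (SE 0.227, adjusted p = 9.20e-04, edgeR) and 2.88 for 3D over 2D (SE 0.247, adjusted p = 1.12e-07, edgeR). The 3D cultures without palmitate lay above the 2D cultures by 1.04 on the log2 scale (adjusted p = 0.00282, edgeR), so each step in the order of the 3 groups was larger than the spread. Without replicate 1 of the 3D cultures with palmitate, the differences were 1.46 (adjusted p = 2.82e-04, edgeR) and 2.50 (adjusted p = 2.87e-09, edgeR).

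Fosb, a close relative of Fos, lies at chr7:19302696-19310051 on the minus strand. Its level was 34.4, 19.9 and 15.2 CPM in the 3D cultures with palmitate, 7.42, 8.40 and 8.03 CPM in those without, and 10.3, 9.39 and 12.3 CPM in 2D. The spheroids with palmitate were again above all other libraries but spread widely, with a coefficient of variation of 43.4%, at a mean of 23.2 ± 10.05 CPM against 7.95 ± 0.496 and 10.7 ± 1.46 CPM (SD, n = 3). Fosb rose with palmitate by 1.64 on the log2 scale (SE 0.223, adjusted p = 0.00174, edgeR) and was higher in 3D than in 2D by 1.22 (SE 0.213, adjusted p = 1.41e-04, edgeR). Without replicate 1 these were 1.18 (adjusted p = 3.20e-04, edgeR) and 0.76 (adjusted p = 1.25e-04, edgeR). The spheroids without palmitate and the 2D cultures, the lower neighbours in the order, did not differ by the test (-0.42, adjusted p = 0.118, edgeR).

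Fosl1, which encodes Fra-1, and Fosl2, which encodes Fra-2, lack the activation domain of Fos. Fosl1 lies at chr19:5447547-5455946 on the plus strand and stood at 42.2, 32.1 and 24.0 CPM in 3D with palmitate, 27.0, 25.8 and 20.9 CPM in 3D without, and 30.3, 32.8 and 36.8 CPM in 2D. These ranges overlap in both study comparisons, and the difference was 0.47 with palmitate in 3D (SE 0.153, adjusted p = 0.124, edgeR) and 0.03 for 3D over 2D (SE 0.148, adjusted p = 0.860, edgeR). The difference with palmitate was 0.23 when replicate 1 of the spheroids with palmitate was left out (adjusted p = 0.459, edgeR) and passed at 0.61 when replicate 3 was (adjusted p = 0.00290, edgeR). It also passed with all libraries and no filter (0.45, adjusted p = 4.52e-04, edgeR), and in 3 of 19 alternatives in total. The spheroids without palmitate were the lowest group, below 2D by -0.44 on the log2 scale (adjusted p = 0.0153, edgeR). Fosl1 shares 1163 bases with Ccdc85b on the opposite strand. The strand setting of the counting is not given, so part of the reads of one could have been assigned to the other. Ccdc85b stood at 89.1, 75.1 and 50.2 CPM in 3D with palmitate, 64.5, 59.3 and 59.5 CPM in 3D without, and 129.7, 125 and 149.8 CPM in 2D.

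Fosl2 (chr5:32135801-32157842, plus strand) moved the other way from Fos. It stood at 125, 129.7 and 118 CPM in 3D with palmitate, 134, 130.0 and 126 CPM in 3D without, and 170.2, 169.6 and 170.4 CPM in 2D. The 2D libraries lay above every spheroid library and within 1 CPM of each other, and both spheroid groups overlapped. Fosl2 was lower in 3D than in 2D by -0.45 on the log2 scale (SE 0.0595, adjusted p = 9.66e-06, edgeR) and the difference with palmitate in 3D was -0.07 (SE 0.0597, adjusted p = 0.630, edgeR). Spheroids without palmitate were below 2D by -0.39 (adjusted p = 3.26e-05, edgeR).

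For Jun and Junb, the Jun partners among the members, no study comparison passed with all libraries. Jun (chr4:95049034-95052222, minus strand) stood at 213, 170.5 and 163 CPM in 3D with palmitate, 169.7, 168 and 156 CPM in 3D without, and 170.0, 143 and 181 CPM in 2D. Junb (chr8:84974484-84978718, minus strand) stood at 266, 209 and 187 CPM, 197, 199 and 187 CPM, and 201, 196 and 219 CPM in the same order. All groups overlap for both genes, and the values above the others are those of replicate 1 of the 3D cultures with palmitate. With palmitate in 3D the log2 fold change was 0.16 for Jun (SE 0.102, adjusted p = 0.466, edgeR) and 0.19 for Junb (SE 0.1001, adjusted p = 0.339, edgeR). For 3D over 2D it was 0.16 for Jun (SE 0.102, adjusted p = 0.188, edgeR) and 0.11 for Junb (SE 0.0999, adjusted p = 0.334, edgeR). Without replicate 1, all 4 differences shrank to between -0.05 and 0.03. Without replicate 3 of the same group, Junb passed with palmitate (0.30, adjusted p = 0.0206, edgeR) and for 3D over 2D (0.21, adjusted p = 0.0244, edgeR), and Jun passed for 3D over 2D (0.23, adjusted p = 0.0359, edgeR). Junb also passed for 3D over 2D with the trends with GC content and length removed (0.30, adjusted p = 5.43e-06, edgeR). Jun shares 232 bases with Junos on the opposite strand, which has no row in the count table.

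Egr1, on chromosome 18, stood at 91.4, 67.5 and 69.2 CPM in 3D with palmitate, 54.4, 58.6 and 53.0 CPM in 3D without, and 53.9, 37.6 and 62.2 CPM in 2D. Each spheroid library with palmitate was above each library of the other groups. Egr1 was higher in 3D than in 2D by 0.60 on the log2 scale (SE 0.151, adjusted p = 0.00276, edgeR). The difference with palmitate in 3D, 0.48, missed the threshold (SE 0.151, adjusted p = 0.119, edgeR), with the smallest p that an exact permutation test of 3 against 3 allows, 0.1 two-sided. It passed where the shallow replicate 3 of the 3D cultures with palmitate was left out (0.54, adjusted p = 0.0206, edgeR) and where the trends with GC content and length were removed (0.48, adjusted p = 0.0271, edgeR). With all libraries and no filter it passed as well (0.46, adjusted p = 2.11e-05, edgeR), and it did so in 4 of 19 alternatives in total. It was smaller where replicate 1 was left out (0.30, adjusted p = 0.344, edgeR). Spheroids without palmitate and 2D cultures did not differ by the test (0.12, adjusted p = 0.487, edgeR).

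Ier2 (chr8:84661331-84662852, minus strand), a small nuclear protein of the immediate early response, stood at 136, 95.9 and 83.0 CPM in 3D with palmitate, 83.4, 89.9 and 86.2 CPM in 3D without, and 91.4, 85.1 and 106 CPM in 2D. The groups overlap, and replicate 1 of the 3D cultures with palmitate was alone above the rest. The log2 fold change was 0.31 with palmitate in 3D (SE 0.136, adjusted p = 0.267, edgeR) and 0.18 for 3D over 2D (SE 0.136, adjusted p = 0.247, edgeR), and 0.06 and -0.06 without that library. Without replicate 3 of the same group, Ier2 passed in both comparisons (0.44, adjusted p = 0.0139, and 0.32, adjusted p = 0.0159, edgeR). With all libraries and no filter it also passed with palmitate (0.29, adjusted p = 0.0188, edgeR). Of 19 alternatives, 3 gave it a call with palmitate and 2 for 3D over 2D. Its calls therefore depend on the libraries kept and on the processing.

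Ier3 (chr17:35821684-35822923, plus strand), an NF-kB and stress-induced regulator of cell survival, was the most abundant member per kilobase. It stood at 293, 252 and 255 CPM in 3D with palmitate, 229.9, 233 and 244 CPM in 3D without, and 196, 194 and 221 CPM in 2D. The 3 groups did not overlap and followed the order of Fos. Ier3 was higher in 3D than in 2D by 0.39 on the log2 scale (SE 0.0739, adjusted p = 2.94e-04, edgeR), and spheroids without palmitate were above 2D by 0.21 (adjusted p = 0.0198, edgeR). The step with palmitate in 3D, 0.18, was not past the threshold (SE 0.0738, adjusted p = 0.226, edgeR), and it was 0.10 without replicate 1 of the spheroids with palmitate (adjusted p = 0.553, edgeR).

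Dusp1 lies at chr17:26505590-26562128 on the minus strand in GENCODE M21, whose gene model runs past the RefSeq start given above. It stood at 21.3, 12.9 and 11.6 CPM in 3D with palmitate, 6.85, 8.66 and 6.67 CPM in 3D without, and 15.2, 12.3 and 14.6 CPM in 2D. The spheroids without palmitate were below every other library, and the groups with palmitate overlapped each other. Dusp1 rose with palmitate in 3D by 1.15 on the log2 scale (SE 0.194, adjusted p = 0.00749, edgeR), and the 3D and 2D cultures with palmitate did not differ by the test (0.23, SE 0.179, adjusted p = 0.274, edgeR). That difference between 3D and 2D passed in 1 of 19 alternatives, with all libraries kept. Spheroids without palmitate were below 2D by -0.92 (adjusted p = 5.55e-04, edgeR). The rise with palmitate was 0.76 without replicate 1 of the 3D cultures with palmitate (adjusted p = 0.0192, edgeR). It missed the threshold when replicate 1 or 3 of the spheroids without added palmitate was left out (adjusted p = 0.0574 and 0.0548, edgeR) and with the Rn45s share as a covariate (adjusted p = 0.0545, edgeR).

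**Figure D3:**
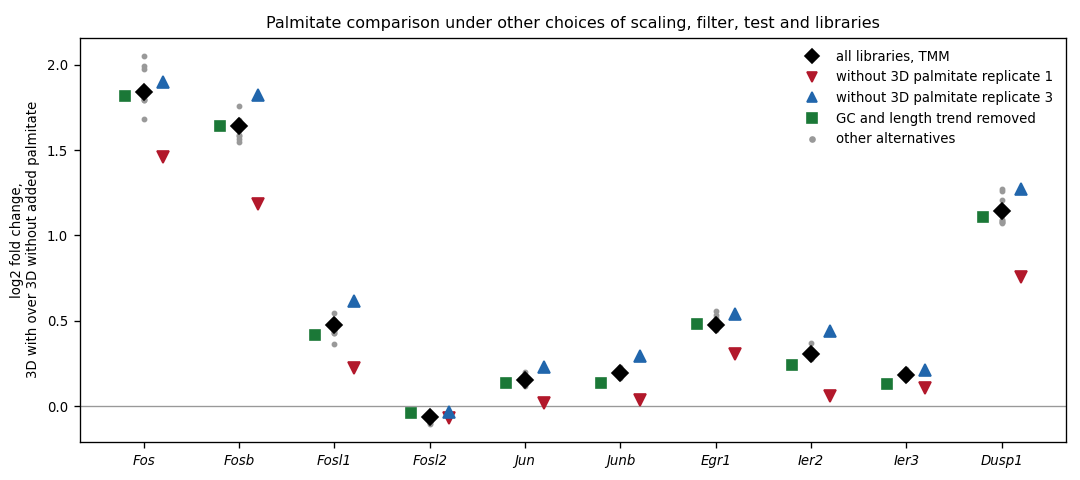
Log2 fold change of each member, 3D cultures with over without palmitate, with all libraries (diamonds), without replicate 1 or 3 of the 3D cultures with palmitate (red and blue triangles), with the trends with GC content and length removed (green squares) and under the other alternatives (grey points). Fos stays between 1.46 and 2.05, Fosb between 1.18 and 1.82 and Dusp1 between 0.76 and 1.27, while Jun, Junb and Ier2 lie at 0.02, 0.03 and 0.06 without replicate 1.

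The orders of the 3 groups fell into few kinds. Fos, Egr1 and Ier3 had the order 2D, 3D without palmitate, 3D with palmitate, with every step passing the test for Fos, the lower step for Ier3 and neither single step for Egr1. Fosb, Fosl1 and Dusp1 had their lowest mean in 3D without palmitate. Against that group both others passed for Dusp1, only 3D with palmitate for Fosb and only 2D for Fosl1. Fosl2 was highest in 2D, with both spheroid groups below it by the test. For Jun, Junb and Ier2 no pair of groups passed. The two-sided exact permutation test of 3 against 3 libraries cannot give a p below 0.1, which it gave wherever the groups did not overlap.

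To describe the makeup of AP-1 transcripts within each library, a measure that library scaling does not change, the levels per kilobase of the 4 Fos genes, Jun, Junb and Jund were summed and each gene was given as a share. Jund, the Jun subunit that is present in resting cells, is no member but belongs to the sum. Fos took 4.57%, 3.08% and 5.03% in 3D with palmitate, 1.12%, 1.45% and 1.84% in 3D without, and 0.650%, 0.437% and 0.561% in 2D, so the groups did not overlap. Fosb took 1.58%, 1.25% and 1.15%, 0.508%, 0.584% and 0.595%, and 0.559%, 0.536% and 0.601% in the same order, and its spheroids with palmitate were above the rest. Jund held the most in each library, at 45.6% ± 4.46 in 3D with palmitate, 46.7% ± 0.544 in 3D without and 56.8% ± 0.495 in 2D (SD, n = 3).

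Of the other subunits, Junb took 27.6% ± 2.06 in 3D with palmitate, 28.7% ± 0.416 in 3D without and 22.9% ± 0.495 in 2D (SD, n = 3), and Jun took 13.0% ± 1.52, 13.8% ± 0.0840 and 10.4% ± 0.635. Fosl2 took 4.40% ± 0.963, 5.32% ± 0.0924 and 5.26% ± 0.389, and Fosl1 3.90% ± 0.201, 3.52% ± 0.325 and 3.59% ± 0.245. The sum itself was 576, 421 and 349.7 CPM per kb in 3D with palmitate, 386, 381 and 357 in 3D without, and 489, 463 and 539 in 2D. The two-sided exact permutation p was 0.1, the smallest possible, for the shares of Fos, Fosb, Jun, Junb and Jund between 3D and 2D and of Fos, Fosb and Fosl2 with palmitate. Adjusted over the 14 tests it was 0.175, so no share passed the threshold and none could have at this number of libraries.

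**Figure D4:**
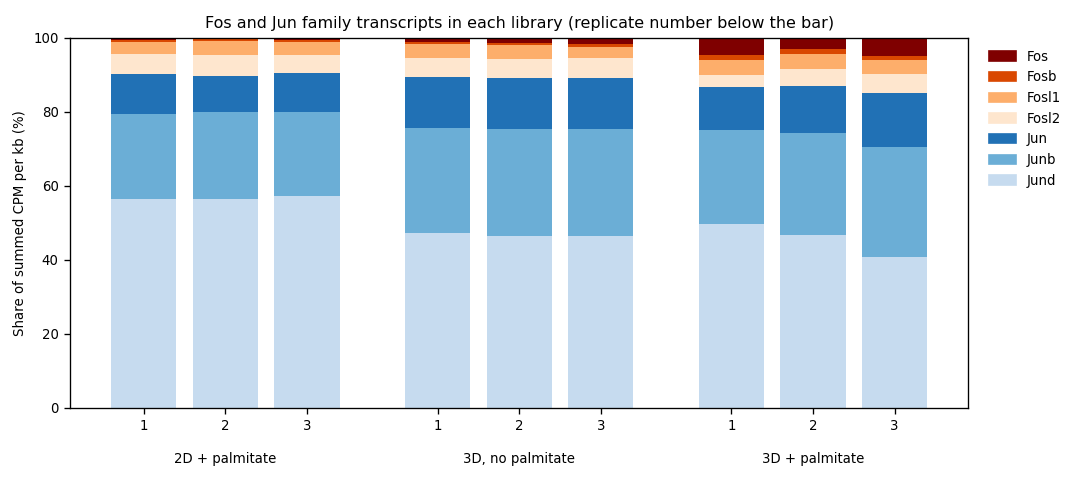
Share of each Fos and Jun family gene in their summed CPM per kb, in percent, as stacked bars for each of the 9 libraries, grouped by condition. The Fos segment is 3.08% to 5.03% in spheroids with palmitate and 0.437% to 0.650% in 2D, and the Jund segment is the tallest in each library.

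Genes of the same pathways were taken from lists chosen with earlier results of these data known, and they are described by counts beside those of all genes given above. Of 30 tested other immediate early genes, 5 rose with palmitate in 3D and 0 fell. These were Ctgf (0.83, SE 0.0991, adjusted p = 8.23e-04, edgeR), Cyr61 (0.81, SE 0.103, adjusted p = 0.00105, edgeR), which encode secreted matricellular proteins, and Atf3, Csrnp1 and Plk2. The median log2 fold change was 0.16, with 24 of 30 above 0, beside 52.2% of all genes. With replicate 1 of the 3D palmitate libraries left out, 4 of these 5 were called (all but Csrnp1), and without replicate 3 of that group 8 genes were. Counts of the lists without these libraries stand beside 1.17% of all genes called with palmitate without replicate 1 (0.658% higher and 0.515% lower) and 14.9% without replicate 3 (8.56% higher and 6.30% lower).

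Between 3D and 2D the same list split, with 10 higher and 12 lower in 3D, beside 34.5% and 33.9% of all genes, and a median of 0.12. Egr3, a relative of Egr1, was higher by 4.88 on the log2 scale (SE 0.136, adjusted p = 1.18e-12, edgeR) and Tiparp by 1.70 (SE 0.0839, adjusted p = 3.32e-10, edgeR). The levels of Egr3 were 29.7 CPM on average in 3D with palmitate, 35.4 in 3D without and 0.959 in 2D. Ctgf and Cyr61 were lower in 3D by -4.04 (SE 0.0859, adjusted p = 1.18e-13, edgeR) and -3.42 (SE 0.102, adjusted p = 1.96e-12, edgeR). Ctgf averaged 278 CPM in 2D, 16.6 in 3D with palmitate and 9.45 in 3D without, and Cyr61 averaged 562, 51.6 and 30.1 CPM. Atf3, Csrnp1 and Plk2 were at -1.29, -0.43 and -1.77 for 3D over 2D (adjusted p = 5.82e-08, 0.00305 and 2.08e-11, edgeR) and at 0.65, 0.53 and 0.38 with palmitate (adjusted p = 0.0105, 0.0354 and 0.0110, edgeR).

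The other partners of Fos and Jun with a leucine zipper gave 11 tested genes. With palmitate Atf3, a stress-induced partner that also belongs to the list above, rose by 0.65 (SE 0.116, adjusted p = 0.0105, edgeR) and the other 10 did not pass. Atf3 alone was called without replicate 1 of the spheroids with palmitate, and without replicate 3 Atf3, Jund and Mafk were called higher and Atf2 and Atf7 lower. Between 3D and 2D, 5 were higher and 5 lower in 3D, beside 34.5% and 33.9% of all genes. Atf7 at 0.99 (adjusted p = 8.22e-08, edgeR) was among the higher. Jdp2, a repressor of AP-1, at -1.30 (adjusted p = 1.35e-08, edgeR) and Atf3 at -1.29 (adjusted p = 5.82e-08, edgeR) were among the lower. Jund was lower in 3D by -0.43 (SE 0.166, adjusted p = 0.0322, edgeR), with overlapping groups, at -0.73 without replicate 1 of the spheroids with palmitate (adjusted p = 7.42e-06, edgeR) and at -0.22, no longer called, without replicate 3 (adjusted p = 0.0702, edgeR).

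The genes listed as feedback or output genes of the ERK kinases were mostly higher in 3D than in 2D. Of 19, 13 were higher and 4 lower, beside 34.5% and 33.9% of all genes, with a median of 0.52. The ERK phosphatases Dusp6 and Dusp4 were higher by 1.96 (SE 0.0614, adjusted p = 2.78e-12, edgeR) and 1.72 (SE 0.0690, adjusted p = 3.59e-11, edgeR), and Dusp14 and Dusp8 were lower by -1.59 (adjusted p = 1.47e-09, edgeR) and -1.18 (adjusted p = 7.02e-08, edgeR). The summed level of the 19 genes was 1915 to 2074 CPM in 3D with palmitate, 1975 to 2031 in 3D without and 1118 to 1123 in 2D. With palmitate in 3D, Dusp5 rose by 0.58 (adjusted p = 0.0157, edgeR), Spry1, an inhibitor of ERK signalling, fell by 0.33 (SE 0.0698, adjusted p = 0.0273, edgeR), and the other 17 did not pass, with a median of 0.07. Without replicate 1 of the 3D cultures with palmitate Dusp5 was no longer called, and without replicate 3 of that group 4 genes were higher and 2 lower.

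**Figure D5:**
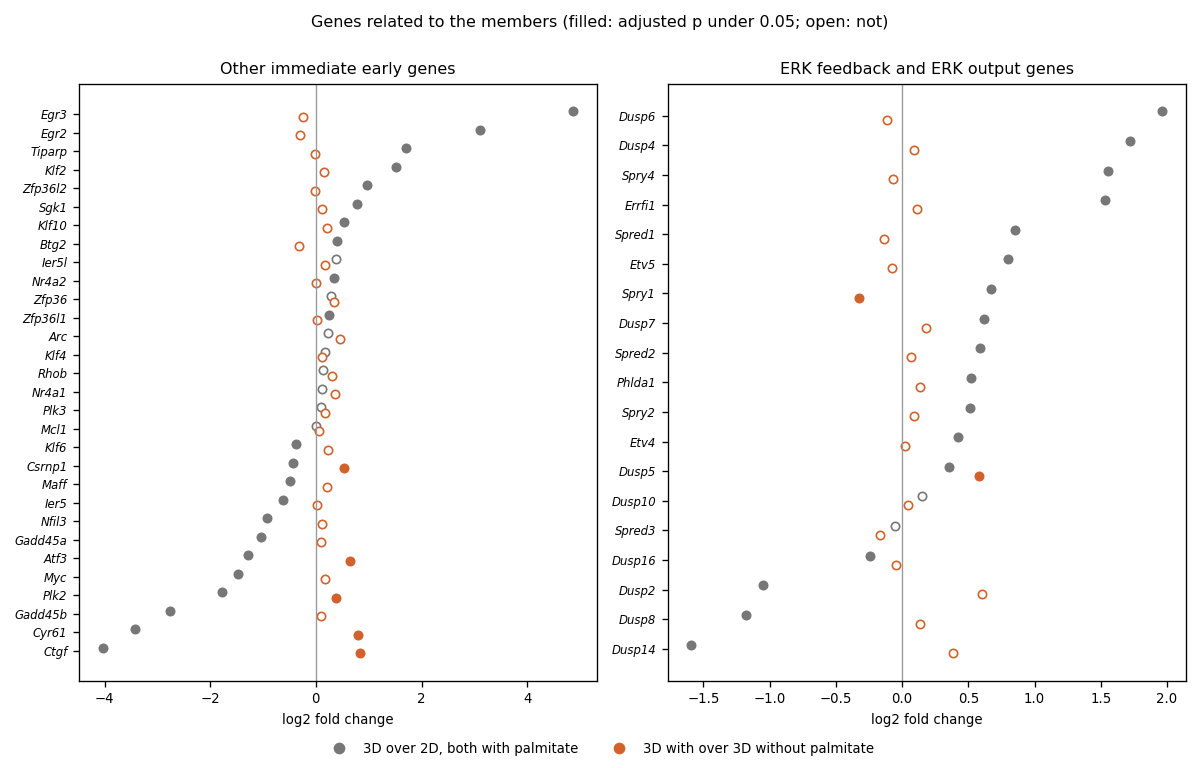
Log2 fold changes of the 30 tested other immediate early genes (left) and the 19 tested ERK feedback and output genes (right), in grey for 3D over 2D cultures with palmitate and in orange for 3D cultures with over without palmitate, filled where the adjusted p is under 0.05. The grey points run from -4.04 for Ctgf to 4.88 for Egr3, while the orange points stay close to 0, the farthest being Ctgf at 0.83.

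Upstream of the members act SRF with its cofactors and the MAP kinases. Of all tested genes, 34.5% were called higher and 33.9% lower in 3D than in 2D. Of the 6 SRF genes, 3 stood higher in 3D, with Elk4 at 1.43 (adjusted p = 2.83e-06, edgeR) and Mkl2 at 0.57 (adjusted p = 2.16e-05, edgeR), and 0 were called with palmitate by edgeR, where the median was -0.01. Of 19 tested MAP kinase genes 7 were higher and 3 lower in 3D, no larger a part called than the 68.3% of all genes. Map2k5 (0.48, adjusted p = 6.41e-05, edgeR) was among the higher and Mapk11 (-0.61, adjusted p = 1.33e-04, edgeR) among the lower. With palmitate Map2k1, which encodes the kinase MEK1 that activates ERK, rose by 0.31 (SE 0.0627, adjusted p = 0.0217, edgeR), and it was not called without replicate 1 of the 3D cultures with palmitate. Without replicate 3 of that group 2 of the kinase genes were higher and 1 lower with palmitate.

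Downstream, 13 of 20 genes with textbook regulation by AP-1 were called higher in 3D and 1 lower, beside 34.5% and 33.9% of all genes, with a median of 0.67. Spp1, which encodes osteopontin, was higher by 3.13 (SE 0.0871, adjusted p = 1.18e-12, edgeR) and the matrix metalloproteinase Mmp3 by 2.93 (SE 0.0888, adjusted p = 2.26e-12, edgeR). With palmitate 2 of 20 rose and 0 fell, with a median of 0.21 and 17 of 20 above 0. Hmox1, which encodes the heme-degrading enzyme, rose by 0.68 (SE 0.0834, adjusted p = 9.18e-04, edgeR) and Timp1 by 0.29 (SE 0.0658, adjusted p = 0.0380, edgeR). Without replicate 1 of the 3D cultures with palmitate only Hmox1 of this list was called with palmitate, and without replicate 3 of that group, where 14.9% of all genes were called, 9 genes were higher and 1, Spp1, lower. All of these genes also answer to other factors.

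Heat shock genes, which handling of cells can also raise, were given as a side measure. Of 12 tested genes 0 were called with palmitate by edgeR, with a median of -0.01. Between 3D and 2D 4 were higher and 5 lower, beside 34.5% and 33.9% of all genes. Dnajb4 and Hspa1b were higher in 3D by 0.75 (adjusted p = 5.28e-07, edgeR) and 0.44 (adjusted p = 0.00138, edgeR), and the mitochondrial chaperones Hspd1 and Hspe1 lower by -1.03 (adjusted p = 7.25e-08, edgeR) and -1.14 (adjusted p = 8.71e-07, edgeR). Their summed level was 2216 to 2659 CPM in 3D with palmitate, 2269 to 2384 in 3D without and 3616 to 3671 in 2D.

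Over the 9 libraries the members' log2 CPM followed each other in part, given as a description since the libraries fall into 3 groups and share their depth and base composition. Pearson's r was 0.98 for Junb and Ier2, 0.94 for Fos and Ier3, 0.86 for Fos and Egr1 and 0.77 for Fos and Fosb, and -0.83 for Fos and Fosl2. Of all tested genes, those most like each member had r between 0.91 and 0.99. They were Dpagt1 and Irak2 for Fos, Acaa2 and Tmem173 for Fosb, Nrtn and Emc4 for Fosl1, Ccbl2 and Srsf4 for Fosl2, Mfsd10 and Fbxl14 for Jun, and Ier2 and Mfsd10 for Junb. For Egr1 they were Jkamp and Timm22, for Ier2 Junb and Sigirr, for Ier3 Pdia6 and Ap2m1, and for Dusp1 Twist1 and Aldh9a1.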

How the data were processed

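Poly(A) RNA of 9 libraries was grouped by the sample labels into 3 conditions of 3. The authors deposited whole-number counts of reads for each gene, without normalization. They cleaned single-end reads with fastq-mcf, checked them with FastQC 0.11.9, aligned them to GRCm38 with HISAT2 2.1.0 and counted with HTSeq-count from a stranded library kit. The annotation release and strand setting are not given in the sources used here, and genes that overlap, on either strand, or have close copies may have shared or lost reads.

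Counts were filtered with filterByExpr, scaled by TMM and tested with edgeR 4.0.16 in R 4.3.3 (quasi-likelihood, group as the only term, all 9 libraries, Benjamini-Hochberg over 12575 genes). Likeness was taken on log2 CPM (prior count 2). Totals of 6595514 to 31177756 counts limit the precision of rare genes. Replicates were no duplicates, with a chi-square per gene of 3.90 to 19.7. Lengths and coordinates came from GENCODE M21 (GRCm38), promoters from RefSeq (GRCm38.p6). The procedure was tested on simulated data.

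The members and lists were chosen with earlier results of these data known. The rule for names took the 10 members, Rn45s, from each list the 2 called genes with the smallest p per direction and comparison, and the 2 genes most like each member. Some genes that the rule selects are not reported here. Marker genes, Junos, Ccdc85b and the remaining genes of short counts (Csrnp1, Plk2, Mafk, Atf2) were named after their values were seen. Alternatives were RLE and library size scaling, other filters, a fit of the 2 compared groups, a replicate block, DESeq2 1.42.0 in place of edgeR, removal of GC and length trends (natural splines with 4 degrees of freedom), the Rn45s share as a covariate, a minimum absolute log2 fold change of 0.5, shares of AP-1 without division by length, and each library left out. The counts of the lists and the medians of the members without replicate 1 or 3 of the 3D palmitate group were added after seeing the data.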

Additional observations from a re-analysis of the deposited data

How the results depend on the processing

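Fos and Fosb kept their direction and their call in both comparisons under all 19 alternatives, with log2 fold changes of 1.46 to 2.05 and 1.18 to 1.82 with palmitate and of 2.50 to 3.10 and 0.76 to 1.40 for 3D over 2D. Egr1, Ier3 and Fosl2 kept theirs for 3D over 2D under the same 19, but Ier3 and Fosl2 fall below the minimum absolute log2 fold change of 0.5, a further alternative. Dusp1 kept its direction with palmitate and lost its call in 3 alternatives, given in the report. For 3D over 2D, values near 0 changed sign. Without replicate 1 of the 3D cultures with palmitate, Fosl1 was at -0.22, Junb at -0.049, Ier2 at -0.065 and Dusp1 at -0.16, the lowest of their values with a library left out, of which the highest were 0.17, 0.21, 0.32 and 0.36. Fosl1 was also at -0.036 without replicate 1 of the 2D cultures, at -0.022 with the replicate block, and at -0.0046 and -0.0028 with DESeq2 on all libraries and on 2 groups. The share of Jund differed by 1.39 points with palmitate without replicate 3 of the 3D cultures with palmitate, against -1.05 with all libraries and a lowest value of -2.99.

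The members called with palmitate numbered 6 with no filter and 6 with GC and length trends removed, and 2 to 7 with a library left out (7 without replicate 3 of the 3D cultures with palmitate). For 3D over 2D they numbered 8 with GC and length trends removed, 3 with the minimum fold change, and 5 to 8 with a library left out. The 8 without a library came from leaving out that same one, beside 69.3% of all genes. In the fit of the report 68.3% of all genes were called for 3D over 2D. The share with GC and length trends removed is not given here, so these counts are not read as a result about the members. All genes called with palmitate, 275 in the report, numbered 617 with no filter, 77 with the 2 groups alone and 174 with DESeq2 on the 2 groups. The number was 1054 with GC and length trends removed, 44 with the Rn45s covariate and 119 with the minimum fold change. It stayed nearer to 275 with RLE scaling (259), library size scaling (227) and at least 10 counts in every library (233). With a library left out it was 71 to 1901, with 1901 where replicate 3 of the 3D palmitate group was missing. Of those fits only the one without replicate 3 of the 2D cultures (200) was within 1.5 times of 275. The split of 173 higher and 102 lower became 106 and 121 with library size scaling and 325 and 292 with no filter. For 3D over 2D, 5113 genes were called with the minimum fold change and 7977 to 8866 with a library left out. The cause of these changes was not tested.

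The replicate numbers are shared by the groups but do not pair the libraries: the correlation of deviations from the group means was -0.24 to 0.15 between libraries of the same number and -0.17 to 0.28 between others. With the replicate number as a block, 111 genes were called with palmitate and 8323 for 3D over 2D, and the same number of members, 3 and 5. Fos, Fosb and Dusp1 rest on as few as 76 counts in the shallowest libraries, and intervals from counting alone would not cover the spread between libraries.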
